A study of Homo sapiens with 6 samples.

Results

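Cholesterol efflux and its control by the liver X receptors (LXRs) were followed through 10 genes in hiPSC-CMs, cardiomyocytes made from human pluripotent stem cells, after exposure to alcohol with or without losartan. The genes were chosen by name from their known roles, with earlier results of these data known. They comprised the LXRs NR1H2 and NR1H3, the exporters ABCA1 and ABCG1, the apolipoprotein APOE and the ubiquitin ligase MYLIP. Also included were the lysosomal proteins NPC1 and NPC2, the esterifying enzyme SOAT1 and the oxysterol-forming enzyme CYP27A1. All 10 were found among the 21134 genes of the series, and all 10 passed the filter on low counts, as did 14926 genes in total. RNA was sequenced from 6 libraries, 2 per group. Control cells had no treatment, alcohol cells had 100 mM alcohol for 24 h, and co-treated cells had 100 mM alcohol together with 1 μM losartan, a blocker of the angiotensin receptor AT1R, also for 24 h. All cells were of the line H9, which the labels give for induced pluripotent stem cells although H9 is known as a line of human embryonic stem cells. No group had losartan alone, so a response to losartan without alcohol cannot be told apart from a response to both agents. The labels number 2 replicates per group without saying that they were separate cultures, so p-values measure the spread between these libraries only, which may be technical.

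A cell cannot break down the sterol ring, so surplus cholesterol is stored as ester or carried out of the cell. LXRs are nuclear receptors that bind oxysterols, pair with retinoid X receptors and switch on genes of efflux such as ABCA1, ABCG1, APOE and MYLIP. The opposite arm is run by SREBP2, a transcription factor that is released when membrane cholesterol is low and drives cholesterol synthesis and uptake. Macrophages are the cells best known for this efflux, and cardiomyocytes use the same genes on a smaller scale.

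ABCA1 showed the clearest difference among the 10 genes, so the stretch before its start is shown here. LXR with its partner binds pairs of AGGTCA half-sites spaced by 4 bases, an arrangement called DR4. In the RefSeq promoters of GRCh38.p14, which run from 250 bases before to 50 after each gene's start, 9 of the 10 genes were present, and ABCG1 was not used in this step. The letters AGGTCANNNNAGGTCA were searched on both strands, where N is any base, and the best match of each promoter was taken by its number of mismatches among the 12 fixed bases. ABCA1 had the best match of the 9, with 2 mismatches at −69 to −54 from the start on the reverse strand, where −1 is the base before the start. Of 35116 promoters, 2.34% had a match as good as this, and 18.7% had a match with up to 3 mismatches, the number found for NPC2. The other promoters had 4 mismatches, except NPC1 with 5. The ABCA1 sequence is chr9:104928156-104928405 of GRCh38.p14, read 5′ to 3′ on the minus strand with the match in capitals, and it also holds the only CACGTG (E-box, in lower case) among the 9 promoters, against 7.26% of all promoters. The match is given again on the strand where it reads as a DR4, beside the best match of NPC2. None of the 9 held the sterol response element TCACNCCAC, which 1.13% of all promoters hold. A match is a run of letters and does not show binding.
ABCA1 upstream: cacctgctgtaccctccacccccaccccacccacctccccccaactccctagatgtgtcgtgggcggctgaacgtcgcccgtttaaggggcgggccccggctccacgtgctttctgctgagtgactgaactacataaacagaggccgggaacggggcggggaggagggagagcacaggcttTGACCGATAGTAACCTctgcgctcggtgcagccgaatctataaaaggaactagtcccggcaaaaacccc
ABCA1 match read as DR4: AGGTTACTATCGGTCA
NPC2 match read as DR4: GGGTCCGGGCGGGTCA

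Levels are given as FPKM, the reads of a gene per kilobase of its length scaled to the reads of the library. The libraries held 4898287 to 5051448 expected counts, so a count of 0 still allows 3 counts, or 0.594 to 0.612 CPM when scaled by the size of the library. This floor covers counting error only. The 10 genes spanned a wide range of levels. APOE had a mean of 178 FPKM over the 6 libraries, above 98.0% of the genes tested, and NPC2 followed at 152 FPKM, with overlapping ranges. NR1H2 came next at 16.0 FPKM, 9.48-fold below NPC2 with no overlap, followed by CYP27A1 at 15.5, ABCA1 at 7.15 and MYLIP at 7.11 FPKM. All 6 MYLIP values lay above all 6 values of NPC1, which had 5.60 FPKM. ABCG1 at 4.43, SOAT1 at 3.72 and NR1H3 at 2.66 FPKM were lowest, and NR1H3 lay above only 21.5% of the genes tested. Every other pair of neighbours in this order overlapped.

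**Figure D1:**
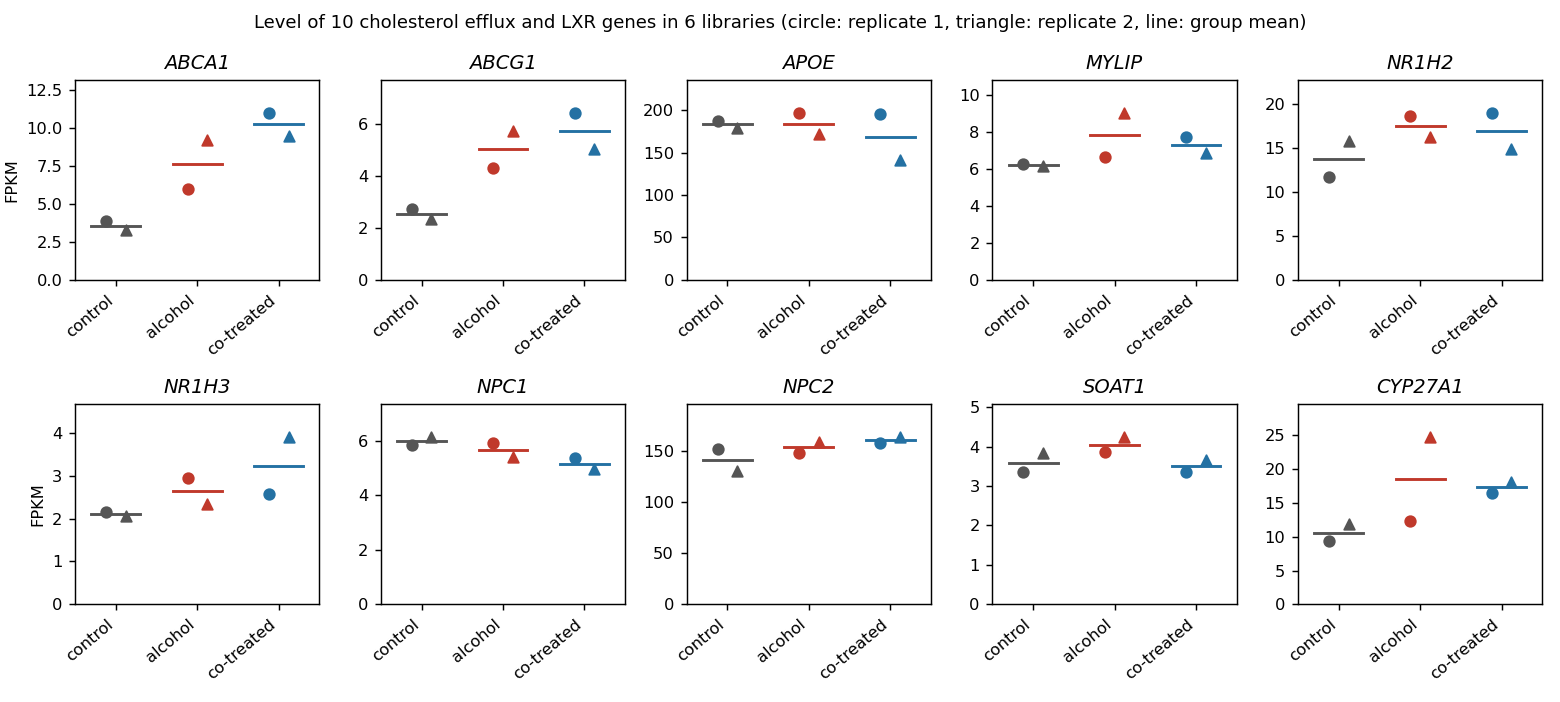
FPKM of the 10 genes in each of the 6 libraries, each gene on its own linear axis from 0, with a circle for replicate 1, a triangle for replicate 2 and a line at the group mean. The 4 libraries exposed to alcohol lie above both control libraries for ABCA1, ABCG1, MYLIP, NR1H3 and CYP27A1, while APOE and NPC2 stay within 131 to 196 FPKM in all groups.

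The labelled cell type was checked with marker genes. The 11 cardiomyocyte markers were the highest list, with none at 0, and MYL7, an atrial myosin light chain, was the highest of them. The 6 macrophage markers summed to 3.24 to 4.45 FPKM, and 1 to 3 of them were at 0 in each library, while the highest, CD68, had 1.72 to 3.13 FPKM. The 7 fibroblast markers, led by COL3A1, summed to 421 to 517 FPKM, the 5 pluripotency markers, led by POU5F1, to 10.4 to 19.3 FPKM, and the 8 hepatocyte and endoderm markers, led by AFP, to 30.0 to 38.4 FPKM.

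ABCA1 (chr9:104781006-104928155 in GRCh38.p14, minus strand), which loads cholesterol and phospholipid onto apolipoprotein A-I, was the 1 gene of the 10 that passed the test. It had 3.89 and 3.28 FPKM in control, 5.99 and 9.24 in alcohol and 10.99 and 9.49 in co-treated cells. The 3 groups did not overlap, and the lowest exposed library was still above the highest control. Group means were 3.59 ± 0.431 FPKM (control), 7.62 ± 2.30 FPKM (alcohol) and 10.2 ± 1.06 FPKM (co-treated; SD, n = 2 each), on 176 to 573 counts per library. ABCA1 rose in co-treated cells against control by 1.47 on the log2 scale (standard error 0.18, 95% interval 1.08 to 1.85, adjusted p = 0.00520 from edgeR's quasi-likelihood test with Benjamini-Hochberg adjustment), a fold of 2.76, and ranked 4 by p among all genes. Between alcohol and control its log2 fold change was 1.04 (standard error 0.18, 95% interval 0.65 to 1.43), with an adjusted p of 0.0547 from edgeR that missed the threshold of 0.05. Co-treated and alcohol cells differed in ABCA1 by 0.43 (95% interval 0.07 to 0.79), with an unadjusted p of 0.0241 and an adjusted p of 0.857 in edgeR. For 1 gene alone, 2 libraries against 2 allow no two-sided exact permutation p below 0.333, so each adjusted p draws on a spread pooled over many genes.

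Co-treated against control, the log2 fold change lay between 1.29 and 1.61 over 14 alternative settings, and 10 of them called it, with adjusted p from 2.19e-08 to 0.140. The call was lost without co-treated replicate 1 (adjusted p = 0.107 from edgeR), without co-treated replicate 2 (0.140), and with limma on log2(FPKM + 1) (0.117) or log2(FPKM + 0.1) (0.126). Between alcohol and control, the adjusted p ranged from 0.00106 to 0.351 and 5 of 14 settings called ABCA1. There alcohol replicate 2 weighed most. Without alcohol replicate 2 the log2 fold change was 0.74 (adjusted p = 0.351 from edgeR), and without alcohol replicate 1 it was 1.30 (0.00220). Co-treated cells differed from alcohol cells by 0.17 once alcohol replicate 1 was left out, and by 0.73 once alcohol replicate 2 was.

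**Figure D2:**
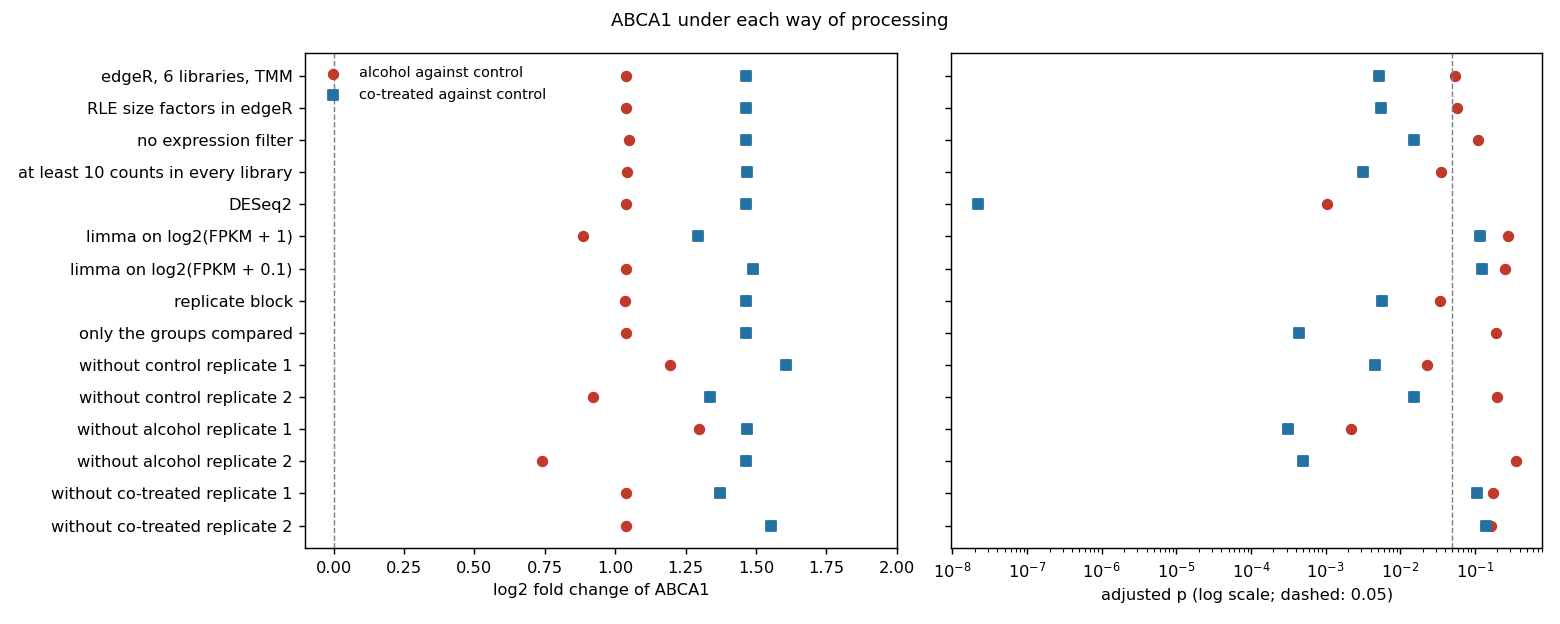
Log2 fold change of ABCA1 under the main settings and 14 alternatives, and its adjusted p on a log axis with a dashed line at 0.05, for alcohol (circles) and co-treated cells (squares) against control. Co-treated values lie between 1.29 and 1.61, and alcohol values lie between 0.74 and 1.30.

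The marker sums were set beside ABCA1 by group. The 11 cardiomyocyte markers summed to 23967 and 24752 FPKM in control, 22599 and 17936 in alcohol and 19189 and 20510 in co-treated cells. All 4 exposed libraries lay below both controls in this sum, most of which was MYL7 in each library. MYL7 had 14512 and 16180 FPKM in control, 12612 and 9321 in alcohol and 10240 and 11847 in co-treated cells. Of the 11 markers, 6 had a log2 fold change above 0 for alcohol against control (49.4% of all genes), with a median of 0.02. For co-treated cells against control 3 were above 0 (49.8% of all genes), with a median of −0.18. MYL7 had a log2 fold change of −0.52 against control in each exposed group (unadjusted p = 0.0101 for alcohol and 0.00975 for co-treated cells, adjusted p = 0.273 and 0.224 from edgeR). The 4 smooth muscle markers summed to 1927 and 1689 FPKM in control, 1451 and 722 in alcohol and 991 and 1036 in co-treated cells, and none was at 0. Of these, ACTA2, smooth muscle actin that immature cardiomyocytes also express, fell by 1.25 on the log2 scale in co-treated cells against control (standard error 0.20, adjusted p = 0.0203 from edgeR, 0.000257 to 0.349 over the alternatives). The 5 endothelial markers summed to 6.86 and 5.88 FPKM in control, 7.43 and 8.53 in alcohol and 8.90 and 10.5 in co-treated cells. KDR, the VEGF receptor, had 4.00 and 3.70 FPKM in control, 5.18 and 6.53 in alcohol and 6.67 and 7.70 in co-treated cells, in the same order of groups as ABCA1. Without KDR the sum of the other 4 endothelial markers was 2.86 and 2.18 FPKM in control, 2.25 and 2.00 in alcohol and 2.23 and 2.83 in co-treated cells, so the higher sums came from KDR alone. The log2 fold change of KDR in co-treated cells against control was 0.86 (adjusted p = 0.0502 from edgeR). In bulk RNA, fewer cells of a type and less RNA per cell cannot be told apart, and the part of these markers in the ABCA1 result was not tested. The macrophage markers, low throughout, summed to 4.17 and 3.90 FPKM in control, 3.46 and 4.45 in alcohol and 4.01 and 3.24 in co-treated cells.

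A gene next to ABCA1 was examined after its values were seen. NIPSNAP3B (chr9:104764129-104790899 in RefSeq, opposite strand) overlaps the 3′ end of the ABCA1 locus by 9894 bases, although the GENCODE 29 basic exons of the genes share 0 bases. It had 7.89 and 9.40 FPKM in control, 11.23 and 11.59 in alcohol and 15.37 and 17.12 in co-treated cells. The 3 groups did not overlap and stood in the same order as in ABCA1, as they did for KDR and for PLTP, a gene given below. The share of all genes with this order was not counted. NIPSNAP3B rose in co-treated cells against control by 0.88 on the log2 scale (standard error 0.14, adjusted p = 0.0248 from edgeR), called in 7 of 14 alternatives, with adjusted p from 0.00747 to 0.308. Leaving out either control library (0.0988 and 0.120) or either co-treated library (0.107 and 0.308) ended that call. NIPSNAP3A on its other side had 24.65 and 25.16 FPKM in control and 29.07 and 33.17 in co-treated cells, a log2 fold change of 0.27 (adjusted p = 0.474). The sources used here do not state whether counting used strand, so reads of ABCA1 and NIPSNAP3B in the shared stretch may not be separable. ABCA1 had a whole count (within 0.001) in 6 of 6 libraries, as had 9 of the 10 genes, all but SOAT1, so the deposited counts hold no fraction of a read for ABCA1.

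ABCG1 (chr21:42199689-42297244), the half-transporter that passes cholesterol to mature HDL, showed the same order of group means at lower counts. It had 2.71 and 2.33 FPKM in control, 4.32 and 5.74 in alcohol and 6.41 and 5.05 in co-treated cells. Both exposed groups lay above control without overlap, and they overlapped each other. On 35 to 94 counts per library, the log2 fold change was 0.95 for alcohol against control (95% interval 0.40 to 1.50, unadjusted p = 0.00249, adjusted p = 0.179 from edgeR). For co-treated cells against control it was 1.14 (95% interval 0.59 to 1.68, unadjusted p = 0.000561, adjusted p = 0.0787 from edgeR), with adjusted p from 0.0447 to 0.347 over the alternatives, of which only the fit without alcohol replicate 1 called it. Co-treated and alcohol cells differed by 0.19 (95% interval −0.31 to 0.69). The ratio of ABCA1 to ABCG1 FPKM was 1.44 and 1.41 in control, 1.39 and 1.61 in alcohol and 1.71 and 1.88 in co-treated cells, so both co-treated ratios were above the other 4.

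CYP27A1 (chr2:218782147-218815293), the mitochondrial enzyme that turns cholesterol into 27-hydroxycholesterol, an LXR ligand, varied most between alcohol libraries. It had 9.36 and 11.88 FPKM in control, 12.35 and 24.67 in alcohol and 16.50 and 18.07 in co-treated cells. The exposed libraries were all above control, but alcohol replicate 1 was only just above the higher control and alcohol replicate 2 was the highest of all 6. Between alcohol and control the log2 fold change was 0.75 (95% interval 0.22 to 1.28, unadjusted p = 0.00924, adjusted p = 0.267 from edgeR). It was 0.22 without alcohol replicate 2 (adjusted p = 0.985) and 1.15 without alcohol replicate 1 (adjusted p = 0.0101). Co-treated cells differed from control by 0.66 (95% interval 0.12 to 1.19, unadjusted p = 0.0198, adjusted p = 0.288 from edgeR).

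The receptors themselves differed little next to their spread. NR1H2 (LXRβ, chr19:50376457-50383388), the form found in most tissues, had 11.65 and 15.78 FPKM in control, 18.66 and 16.30 in alcohol and 18.96 and 14.85 in co-treated cells. Its alcohol libraries lay above control in FPKM and overlapped control in CPM, and the log2 fold change was 0.31 (95% interval −0.09 to 0.72, adjusted p = 0.592 from edgeR), and was 0.14 with control replicate 1 left out and 0.55 with control replicate 2 left out. NR1H3 (LXRα, chr11:47248300-47269033), the form of liver, fat and macrophages, had 2.16 and 2.06 FPKM in control, 2.95 and 2.34 in alcohol and 2.58 and 3.89 in co-treated cells. The 4 exposed libraries lay above both controls, on only 18 to 34 counts per library. The interval for co-treated cells against control, −0.30 to 1.36 around 0.53, holds both no change and a rise well above the estimate, which ran from 0.19 without co-treated replicate 2 to 0.81 without co-treated replicate 1. NR1H3 also shares 189 exon bases, 5.39% of its own, with ACP2 on the opposite strand. NR1H2 exceeded NR1H3 in every library, by 3.82 to 7.66 times in FPKM.

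APOE (chr19:44905796-44909393), the lipid carrier of lipoproteins and an LXR target in macrophages and fat, was the highest of the 10 and did not move with ABCA1. It had 187.56 and 178.96 FPKM in control, 196.35 and 171.72 in alcohol and 195.10 and 140.63 in co-treated cells. All 3 groups overlapped. The log2 fold change was −0.03 for alcohol against control (95% interval −0.36 to 0.30) and −0.17 for co-treated cells against control (95% interval −0.50 to 0.15), intervals that leave out a change as large as the estimate for ABCA1 in the same comparison. MYLIP (chr6:16129086-16163887), which marks the LDL receptor for breakdown, had 6.26 and 6.15 FPKM in control, 6.65 and 9.02 in alcohol and 7.71 and 6.87 in co-treated cells. The 4 exposed libraries were above both controls, with log2 fold changes of 0.29 (95% interval −0.12 to 0.70, adjusted p = 0.632) and 0.18 (95% interval −0.23 to 0.60, adjusted p = 0.753) for alcohol and co-treated cells against control in edgeR. Leaving out alcohol replicate 2 gave 0.10 for alcohol, and leaving out alcohol replicate 1 gave 0.47.

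The lysosomal partners NPC1 and NPC2, which hand cholesterol out of the lysosome, and SOAT1, which esterifies it for storage, did not pass the test in any comparison. NPC1 (chr18:23506184-23586506) had 5.86 and 6.12 FPKM in control, 5.90 and 5.41 in alcohol and 5.37 and 4.95 in co-treated cells. Its co-treated libraries were the lowest, with a log2 fold change of −0.26 against control (95% interval −0.62 to 0.10, adjusted p = 0.562 from edgeR). NPC1 shares 183 exon bases with RMC1 on the opposite strand, 3.55% of its own. NPC2 (chr14:74479935-74493512) had 151.94 and 130.54 FPKM in control, 148.42 and 159.27 in alcohol and 158.09 and 163.54 in co-treated cells. Both co-treated libraries were above control in FPKM, with a log2 fold change of 0.14 (95% interval −0.12 to 0.40, adjusted p = 0.701 from edgeR). The ratio of NPC2 to NPC1 was 25.9 and 21.3 in control, 25.2 and 29.4 in alcohol and 29.4 and 33.0 in co-treated cells. SOAT1 (chr1:179293797-179358680) had 3.36 and 3.83 FPKM in control, 3.85 and 4.23 in alcohol and 3.35 and 3.67 in co-treated cells. Alcohol was the higher group without overlap on either side, yet the differences were 0.13 against control (95% interval −0.24 to 0.49) and −0.21 for co-treated against alcohol cells (95% interval −0.57 to 0.16).

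**Figure D3:**
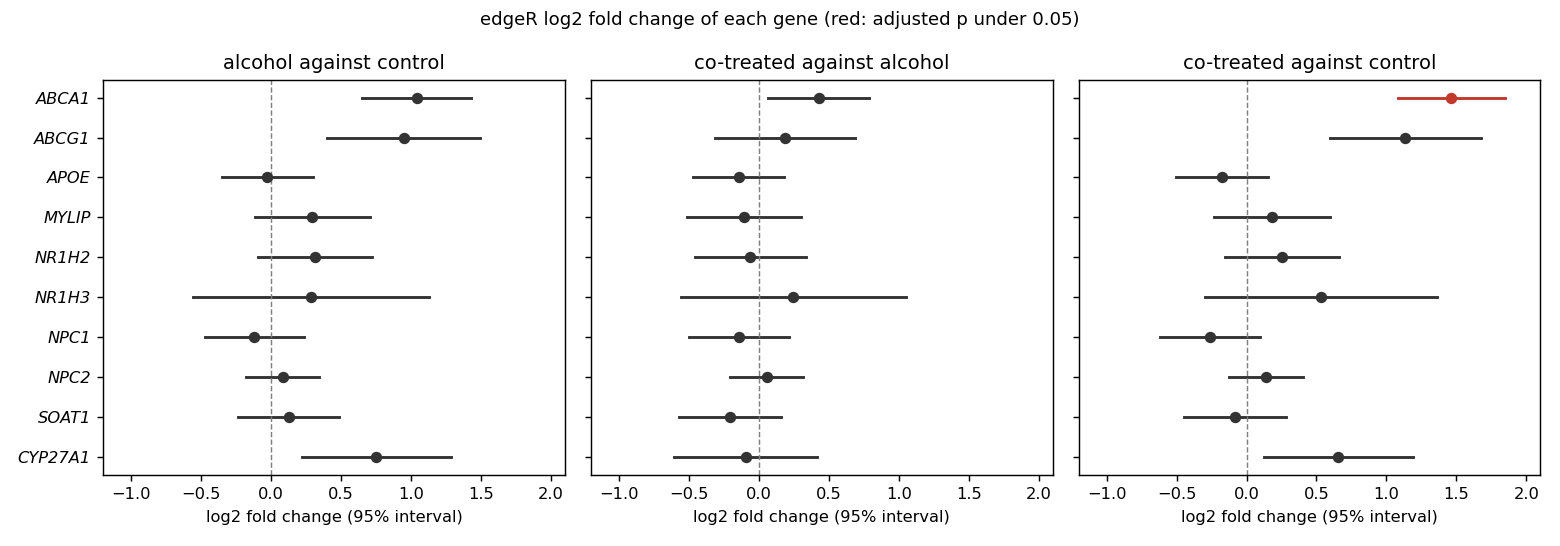
Log2 fold changes of the 10 genes with 95% intervals in the 3 comparisons, from edgeR, in red where the adjusted p was under 0.05. The intervals of ABCA1, ABCG1 and CYP27A1 lie above 0 for both exposed groups against control, that of ABCA1 also for co-treated against alcohol cells, and only ABCA1 in co-treated cells against control passed the adjusted test.

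Counted together, edgeR called 0 of the 10 genes for alcohol against control (adjusted p under 0.05), beside 0.0670% of all genes tested. At an unadjusted p under 0.05, 3 of the 10 passed, ABCA1, ABCG1 and CYP27A1, all higher, against 5.27% of all genes that passed in this direction. DESeq2 called 1 of the 10 and limma called 0. Between co-treated and alcohol cells edgeR called 0 of the 10, against 0.0134% of all genes, with ABCA1 alone at an unadjusted p under 0.05, higher, against 2.84% of all genes in that direction, and DESeq2 and limma also called 0. Between co-treated and control cells 1 of the 10 was called, ABCA1, against 0.362% of all genes, and the same 3 genes as for alcohol passed unadjusted, against 6.26% of all genes in that direction. Both exposed groups were compared with the same control libraries, so these counts are not independent of each other. The 10 genes were chosen with earlier results of these data known, so the counts cannot serve as an independent test. Groups without overlap in FPKM were counted too. Alcohol was higher than control in 7 of the 10 genes and lower in 0, where 24.7% of all genes were higher and 17.7% lower. Co-treated cells were higher than alcohol cells in 1 gene, ABCA1, and lower in NPC1 and SOAT1, where 18.0% of all genes were higher and 14.3% lower. They were higher than control in 6 and lower in 1, NPC1, where 27.1% of all genes were higher and 16.3% lower. In CPM alcohol was higher than control in 6 and lower in NPC1 (22.0% and 21.8% of all genes), co-treated cells were higher than alcohol cells in ABCA1 and NPC2 and lower in SOAT1 (17.4% and 16.2%), and they were higher than control in 5 and lower in NPC1 (21.6% and 21.7%). In 5 of the 10 genes the 4 exposed libraries all lay above both controls, in FPKM and in CPM, against 14.8% of all genes in FPKM and 11.8% in CPM, and they all lay below in 0 of the 10 in FPKM and in 1, NPC1, in CPM, against 8.39% and 11.3% of all genes. The median log2 fold change of the 10 genes was 0.29 for alcohol against control, −0.08 for co-treated against alcohol cells and 0.22 for co-treated cells against control, against −0.0033, 0.0023 and −0.0017 for all genes tested. Without alcohol replicate 2 the first became 0.16 and the second 0.076, and without alcohol replicate 1 they were 0.17 and 0.0031, so the direction of the second rests on both alcohol libraries.

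The wider pathway was read from 7 lists of 70 genes, of which 68 were in the series and 56 were tested. These lists, too, were chosen with earlier results of these data known. None of the 56 was called by edgeR in any comparison, while 21, 3 and 20 had an unadjusted p under 0.05 for alcohol against control, co-treated against alcohol and co-treated against control, where 11.0%, 5.55% and 12.6% of all genes did. DESeq2 called 7, 0 and 0 of them, and 72, 5 and 123 over all genes. Other LXR target genes were divided in direction. Of 10 tested, 5 were above 0 for alcohol against control (49.4% of all genes), with a median of −0.04. For co-treated cells 8 were above 0 against alcohol (50.3% of all genes), with a median of 0.11, and 6 were above 0 against control (49.8%), with a median of 0.04. SCD, a desaturase that both LXR and SREBP1 drive, had 81.4 and 88.8 FPKM in control, 54.1 and 35.0 in alcohol and 73.0 and 71.7 in co-treated cells. Its alcohol libraries were the lowest and its co-treated libraries lay between the other groups, with log2 fold changes of −0.96 for alcohol against control (adjusted p = 0.0684) and 0.68 for co-treated against alcohol cells (adjusted p = 0.587, unadjusted p = 0.00205) in edgeR. Over the alternatives the adjusted p ran from 0.000203 to 0.252 and from 0.00878 to 0.990, and the second was called only without alcohol replicate 1. FASN, fatty acid synthase, had −0.71 for alcohol against control (adjusted p = 0.147, 0.0248 to 0.766 over the alternatives) and −0.65 for co-treated cells against control (adjusted p = 0.129). DESeq2 called SCD and FASN lower in alcohol than in control, the opposite direction to ABCA1. PLTP, the phospholipid transfer protein, went the other way, with 10.6 and 11.7 FPKM in control, 13.1 and 15.2 in alcohol and 15.4 and 16.2 in co-treated cells, and a log2 fold change of 0.42 for co-treated cells against control (adjusted p = 0.290).

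Of the partners and coregulators of LXR, 0 of 7 had an unadjusted p under 0.05 in any comparison by edgeR, and 0 were called by DESeq2. The smallest unadjusted p in edgeR was 0.0778, for NCOA1, a coactivator (0.27 for alcohol against control, adjusted p = 0.519). Next was NRIP1, a corepressor, at 0.128 (0.25 in the same comparison, adjusted p = 0.604). Among other exporters, acceptors and the HDL receptor, 5 of 8 genes were tested. SCARB1, the HDL receptor, had 9.18 and 11.3 FPKM in control, 14.2 and 13.6 in alcohol and 16.0 and 14.2 in co-treated cells, with a log2 fold change of 0.53 for co-treated cells against control (adjusted p = 0.184). APOA1, the main acceptor of ABCA1, had 15.3 and 13.1 FPKM in control, 22.3 and 22.2 in alcohol and 20.0 and 16.4 in co-treated cells, with 0.64 for alcohol against control (adjusted p = 0.247). Both were above control in all 4 exposed libraries, whereas ABCA2, an endosomal transporter, was below control in all 4, with −0.55 for co-treated cells against control (adjusted p = 0.141).

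Sterol handling inside the cell gave mixed values. Of 9 transport genes tested, STARD3, which binds sterol in late endosomes, had 0.51 for alcohol against control (adjusted p = 0.262), TMEM97, a binding partner of NPC1, had −0.52 (adjusted p = 0.244), and LIPA, the lysosomal acid lipase, had 0.46 for co-treated cells against control (adjusted p = 0.343). Of 5 ester genes tested, PLIN2, which coats lipid droplets, had 47.1 and 43.9 FPKM in control, 47.1 and 50.4 in alcohol and 60.3 and 59.4 in co-treated cells. Only the co-treated pair stood clear, with 0.35 against control (adjusted p = 0.227) and 0.29 against alcohol (adjusted p = 0.862, unadjusted p = 0.0261). CES1, an ester hydrolase, had −0.58 for co-treated cells against control (adjusted p = 0.141), and LIPE, hormone-sensitive lipase, had −0.61 (adjusted p = 0.405). Of the other oxysterol and bile acid enzymes, 0 of 5 tested had an unadjusted p under 0.05 by edgeR or were called by DESeq2. The values with the smallest p in edgeR were those of CYP39A1 (1.02 for co-treated against alcohol cells, adjusted p = 0.899), HSD3B7 (0.52 for co-treated cells against control, adjusted p = 0.528) and CYP11A1 (0.48, adjusted p = 0.569). CYP39A1 had 1.40 and 1.49 FPKM in control, 1.22 and 0.81 in alcohol and 2.67 and 1.40 in co-treated cells. Its co-treated libraries thus overlapped control, and only co-treated replicate 1 was above both controls.

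The opposite arm, cholesterol synthesis and uptake under SREBP2, lay on the other side of control from ABCA1. Of 15 genes tested, 14 had a log2 fold change below 0 for alcohol against control (50.6% of all genes), and 13 had an unadjusted p under 0.05 in that direction (5.78% of all genes), while SCAP, the sterol sensor that escorts SREBP2, had 0.47 (unadjusted p = 0.0108, adjusted p = 0.280). The median was −0.61 for alcohol against control, 0.19 for co-treated against alcohol cells and −0.42 for co-treated cells against control, where 14 were below 0 (50.2% of all genes) and 12 had an unadjusted p under 0.05, all lower (6.37% of all genes). EdgeR called 0 of the 15 in each comparison and DESeq2 called 5, 0 and 0. HMGCS1, which makes HMG-CoA, the substrate of HMG-CoA reductase, had 92.0 and 113 FPKM in control, 59.1 and 41.6 in alcohol and 53.8 and 69.4 in co-treated cells. The 4 exposed libraries were below both controls, with log2 fold changes of −1.05 (adjusted p = 0.0547) for alcohol and −0.78 (adjusted p = 0.0911) for co-treated cells against control. FDFT1, squalene synthase, had −0.70 (adjusted p = 0.0924) and FDPS, farnesyl diphosphate synthase, had −0.85 (adjusted p = 0.105) for alcohol against control. The 16 listed genes summed to 739 and 873 FPKM in control, 599 and 478 in alcohol and 581 and 632 in co-treated cells. Alcohol replicate 2 was the lowest library in this sum. Without alcohol replicate 1 the log2 fold change for alcohol against control was −1.37 for HMGCS1 and 0.71 for SCAP. Both values rest on alcohol replicate 2 alone for the alcohol group.

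**Figure D4:**
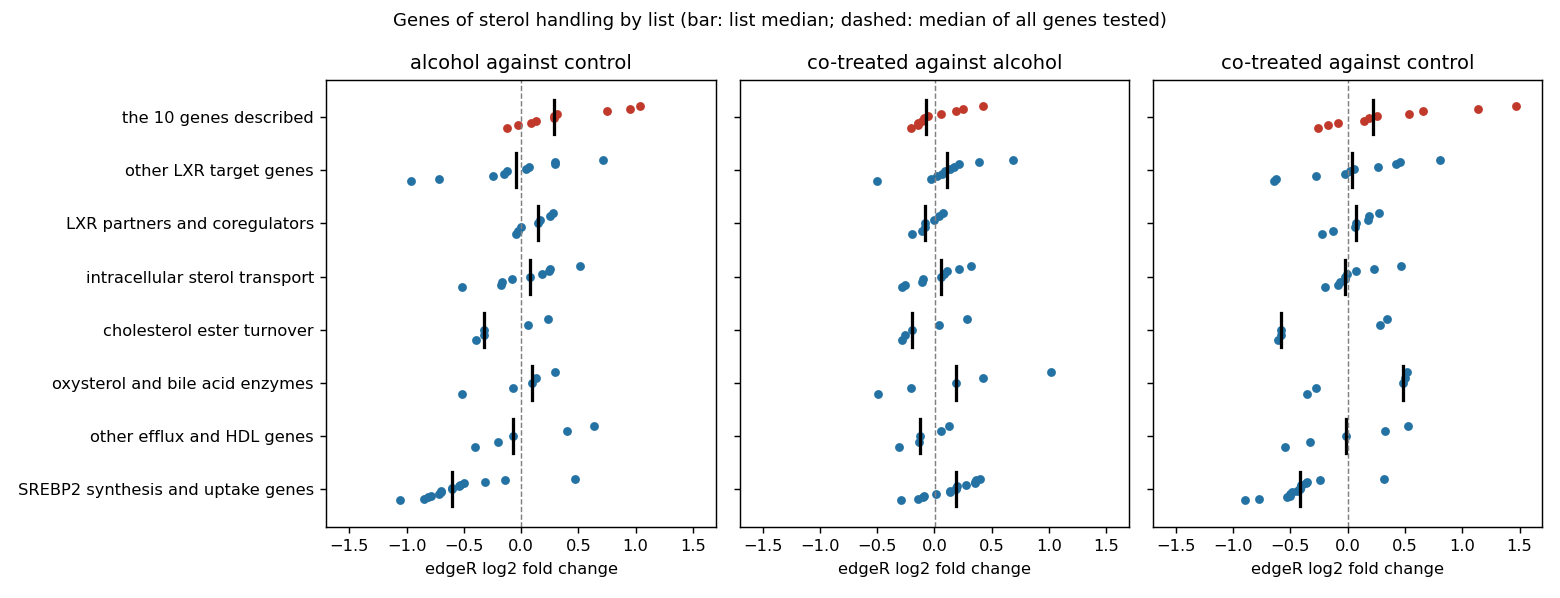
Log2 fold changes of the 10 genes (red) and of the tested genes of the 7 pathway lists (blue) in the 3 comparisons, with 1 point per gene, a bar at each median and a dashed line at the median of all genes tested. The SREBP2 genes lie mostly below 0 for both exposed groups against control (medians −0.61 and −0.42), while other LXR target genes are spread about 0 (medians −0.04 and 0.04).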

How the data were processed

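The 6 RNA libraries of hiPSC-CMs, 2 per group, were grouped by the treatment in the labels. The authors deposited, library by library, expected counts (estimated reads of a gene, of which 33.9% above 0 were not whole) and FPKM, and a series table with the same FPKM. The submitters' processing notes name hg38, HISAT2 2.0.4, Bowtie2 2.2.5 and RSEM 1.2.12 without their roles, and the kit's strand setting is not given in the sources used here. Genes left out of a library's table were set to 0.

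Expected counts were rounded and tested by edgeR 4.0.16 (R 4.3.3) with the two-sided quasi-likelihood test. A single fit held all 6 libraries, scaled by TMM and filtered by filterByExpr, and p-values were adjusted by Benjamini-Hochberg across 14926 genes, with a threshold of 0.05. Standard errors are the log2 fold change over the square root of F, and 95% intervals use the degrees of freedom of the fit. The test was checked on simulated counts. Scaled by library totals, the 2 libraries of a group differed by 4.71 to 7.81 times counting noise (chi-square per gene). Replicates of a group thus differed by more than counting noise, which does not show whether they were separate cultures. Pairs across groups were not checked in this way. The paper gives only a fold and a probability as thresholds, which yield no adjusted p.

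The 10 genes and all lists were chosen with earlier results of these data known. The text names all 10, any list gene called, the 3 genes of each pathway list with the smallest p in any comparison and the highest gene of each marker list, except that some of these genes are not reported here. SCAP and both neighbours of ABCA1 fall outside this rule and were chosen with their values in view.

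The alternatives tried were RLE size factors, no filter, at least 10 counts in every library, DESeq2 1.42.0, limma 3.58.1 on log2(FPKM + 1) and log2(FPKM + 0.1), a replicate block, only the groups compared, and each library left out. Coordinates and promoters are from RefSeq GRCh38.p14, and exon overlaps are from GENCODE 29.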

Additional observations from a re-analysis of the deposited data

How the results depend on the processing

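Over 14 alternatives, the 30 log2 fold changes of the 10 genes gave 417 values with an adjusted p (DESeq2 gave none for ABCG1 and NR1H3 in alcohol and NR1H3 in co-treated cells against control), of which 393 kept both direction and side of the threshold, 7 gained a call, 4 lost it and 13 turned direction. Between alcohol and control, 0 of the 10 genes were called, and 1 with at least 10 counts in every library, with DESeq2 or with the replicate block (0 to 2 leaving out a library). Between co-treated and control cells 1 was called, and 0 by limma with either pseudocount (0 to 2 leaving out a library). Over all genes, alcohol against control gave 10 calls, 2 without a filter, 26 with at least 10 counts, 72 with DESeq2, 0 and 2 by limma on log2(FPKM + 1) and log2(FPKM + 0.1), 48 with the block and 3 from only the groups compared (1 to 220 leaving out a library). Co-treated against alcohol gave 2 calls, 1 without a filter, 0 with at least 10 counts, 5 with DESeq2, 1 by limma on log2(FPKM + 1), 5 with the block and 4 from only the groups compared (1 to 24 leaving out a library). Co-treated against control gave 54 calls, 15 without a filter, 123 with DESeq2, 2 and 3 by limma, 136 with the block and 158 from only the groups compared (2 to 184 leaving out a library). The cause was not tested.

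Turned directions were all near 0 or rested on 1 library. For alcohol against control, APOE was −0.03 and became 0.0032 by limma with either pseudocount (−0.16 to 0.10 leaving out a library), and NPC2 ran from −0.023 to 0.22. For co-treated against alcohol cells, APOE ran from −0.39 to 0.060, MYLIP from −0.29 to 0.085, NR1H2 from −0.23 to 0.090, NR1H3 from −0.10 to 0.52 and CYP27A1 from −0.49 without alcohol replicate 1 to 0.44 without alcohol replicate 2. For co-treated cells against control, APOE ran from −0.41 to 0.032 and SOAT1 from −0.16 to 0.0014. The median over the 10 genes ran from 0.16 to 0.29, −0.09 to 0.076 and 0.15 to 0.30 in the 3 comparisons when each library was left out.

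The replicate numbers are shared labels, not a stated pairing. Deviations of same-numbered libraries correlated at 0.055 (control and alcohol), −0.028 (control and co-treated) and 0.038 (alcohol and co-treated) over 14450 genes. With the replicate block ABCA1 had an adjusted p of 0.0346 for alcohol and 0.00578 for co-treated cells against control in edgeR.

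NR1H3 (18 to 34 counts per library) and ABCG1 (35 to 94) rest on the lowest counts of the 10 genes.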

Other observations

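Several genes that act on the same sterols in liver or gut were at or near the limit of detection. Of the 70 pathway genes 12 were listed but too low to test, and 6 of these had no more than 3 counts in any library. Among them were APOC2, an activator of lipoprotein lipase, ABCG5 and ABCG8, which export sterols into bile, NPC1L1, the sterol importer of the gut, and SOAT2, the esterifying enzyme of gut and liver. At this depth no difference in these was detectable. ABCG4, a sterol exporter of neurons, had 17 and 4 counts in control, 8 and 4 in alcohol and 5 and 3 in co-treated cells. CETP, which moves cholesteryl ester between lipoproteins, had 1 and 1 counts in control, 0 and 4 in alcohol and 1 and 7 in co-treated cells. CH25H and CYP7A1 were not listed.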
